A study of Homo sapiens with 6 samples.

Results

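The genes described here are those whose RNA separated the RBM10 knockdown (KD) cells from control cells with both hairpins used. A gene was counted as non-overlapping when all 4 RBM10 KD libraries lay above, or all 4 lay below, both control libraries, after read counts were summed per gene symbol and scaled to library size with TMM factors (given as CPM, the counts of a gene relative to all counts of its library). Of 26334 gene symbols in the tables, 14217 passed a filter on low counts. In 2123 of these the KD libraries lay above both controls, in 2061 they lay below both, and in 10033 the groups overlapped.

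The cells were PC-9, a human lung adenocarcinoma line driven by a mutant EGFR, grown in RPMI with 10% FBS and left without drug. Total RNA was sequenced from cells with a scrambled hairpin (shScr, 2 libraries) or with shRBM10#1 or shRBM10#2 (2 libraries each), so 6 libraries in all entered each comparison. The 3 conditions share the PC-9 background, and the labels do not say whether the cells of a condition were a pool or 1 clone. Groups follow the labels, which give shScr as the control, as the study's results do, although its sequencing methods name parental cells. Nothing says that the libraries of a condition came from separate cultures, so the p-values measure the spread between these libraries, which may be technical.

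RBM10 is an RNA-binding protein of the spliceosome that acts on the choice of splice sites in many transcripts, and it is often inactivated in lung adenocarcinoma. A short hairpin RNA is cut into a small RNA that directs the destruction of mRNAs it matches, and hairpins of different sequence share their intended target but need not share other transcripts they match. Gene totals add up all isoforms of a gene, so a switch between isoforms does not by itself alter them.

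Scaled counts of RBM10 itself were 83.2 and 86.2 CPM under shScr. They were 59.8 and 56.4 CPM under the first hairpin and 27.2 and 26.9 CPM under the second. Every KD library lay below both controls, and the shRBM10#2 libraries were the lowest. The log2 fold change (FC) was -0.54 ± 0.07 (SE) with shRBM10#1 and -1.65 ± 0.07 with shRBM10#2. Averaged over the hairpins it was -1.10 ± 0.06 (edgeR quasi-likelihood test, FDR 3.14e-07). When the 4 KD libraries were treated as one group, so that the gap between hairpins counted as spread, the FDR was 0.146. Of the exonic bases of RBM10 in GENCODE 29, 16.4% also lie in NDUFB11 on the opposite strand, and whether the libraries kept the strand is not given in the sources used here.

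Library totals ranged from 31953729 to 37557507 expected counts, and TMM factors from 0.979 to 1.025. shScr replicate 2 stood apart in fragment length, 231 nt from the effective lengths in its file against 265 to 281 nt in the other libraries. Counts of edgeR calls or the median log2 FC of a list are therefore also given without it. That leaves 1 control, and calls then drop over all genes tested, as they do without shScr replicate 1. A lower count in a list is therefore not by itself particular to it. Non-overlap with 1 control left out becomes easier to meet (3526 genes higher and 3261 lower without shScr replicate 2). Such counts are given for some of the lists that gained genes on the opposite side. Epithelial markers were high in each library (KRT8 between 8893 and 10880 CPM, EPCAM between 368 and 459 CPM), and the 4 immune markers summed to between 0.407 and 1.10 CPM. The lung lineage markers NKX2-1, NAPSA, SFTPB and SFTPC were at or near 0, with no value above 0.588 CPM. Some markers of other cell types separated KD from control at low levels. In unscaled CPM the endothelial marker CDH5 was at 12.5 and 14.5 in shScr and 15.2 to 29.5 in KD, and PECAM1 at 3.38 and 3.20 in shScr and 3.83 to 4.81 in KD. VWF, the third endothelial marker, was below both controls in the 4 KD libraries, with 0.559 to 1.16 against 1.28 and 1.25. The 3 summed to 17.1 and 19.0 in shScr and 20.3 to 35.3 in KD. The fibroblast marker COL1A1 was at 11.2 and 9.92 in shScr and 7.86 to 9.83 in KD, and with TMM scaling its groups overlapped, while COL1A2, PDGFRB and DCN did not exceed 0.376 in any library. The part of these markers in the results was not tested.

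Non-overlapping genes made up 14.9% (higher) and 14.5% (lower) of the genes tested, and these shares are the background for every count below. For one gene, an exact permutation of 4 libraries against 2 cannot go below a two-sided p of 0.133, so non-overlap is given as a description and the verbs rose and fell are kept for genes past an edgeR test. That test set the mean of the hairpins against shScr, with one coefficient per condition, at an FDR below 0.05. It called 1210 genes higher (8.51% of those tested) and 1400 lower (9.85%). Of the non-overlapping genes, 989 of the 2123 higher (46.6%) and 1153 of the 2061 lower (55.9%) passed it. With the 4 KD libraries as one group, edgeR called 77 genes higher (0.542%) and 153 lower (1.08%), and each of these genes was also non-overlapping. The words rose and fell refer to the test of the mean of the hairpins, whose spread leaves out the difference between hairpins. A call from it does not show that both hairpins moved a gene. For some of the lists below, calls with the KD libraries as one group are given beside it.

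Most of the separations were small, and some were very narrow, with gaps of at most 0.000112 on the log2 CPM scale for TERF2 among higher genes and EHD1 among lower ones. The median log2 FC was 0.27 among higher genes (0.25 with shRBM10#1 and 0.29 with shRBM10#2) and -0.29 among lower genes (-0.27 and -0.30). The gap between the nearest KD and control libraries had a median of 0.08 and 0.10 on the log2 CPM scale, and it reached 0.2 in 425 higher and 534 lower genes. The log2 FC exceeded 1 in size in 131 higher and 136 lower genes. The split between directions depended on the unit. With the authors' TPM in place of scaled counts, 968 genes lay above and 2362 below, and the median over all genes shifted by -0.07 on the log2 scale against 0.00 with TMM.

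Transcript length moved with the direction. Lower genes had a median transcript length of 3555 nt, higher genes 2811 nt and all genes tested 2932 nt. In the quintile of genes with the shortest transcripts 15.6% lay above and 9.14% below, whereas in the quintile with the longest 11.9% lay above and 20.1% below. With counts corrected for a length trend in each library, 17.5% of the longest quintile lay above and 18.7% below, and 1913 higher and 1903 lower genes stayed on their side. The shScr libraries differed along the same axis. The median log2 difference of shScr replicate 2 minus replicate 1 went from -0.09 in the shortest quintile to 0.09 in the longest, while the median log2 FC of KD against shScr went from 0.04 to -0.03. The part of the shorter fragments in the trend was not tested. GC content moved with the direction as well, with medians of 46.6% in higher, 51.7% in lower and 50% in all genes tested. With a GC offset 1808 higher and 1805 lower genes stayed on their side, and with the KD libraries as one group edgeR then called 174 genes higher and 265 lower.

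**Figure D1:**
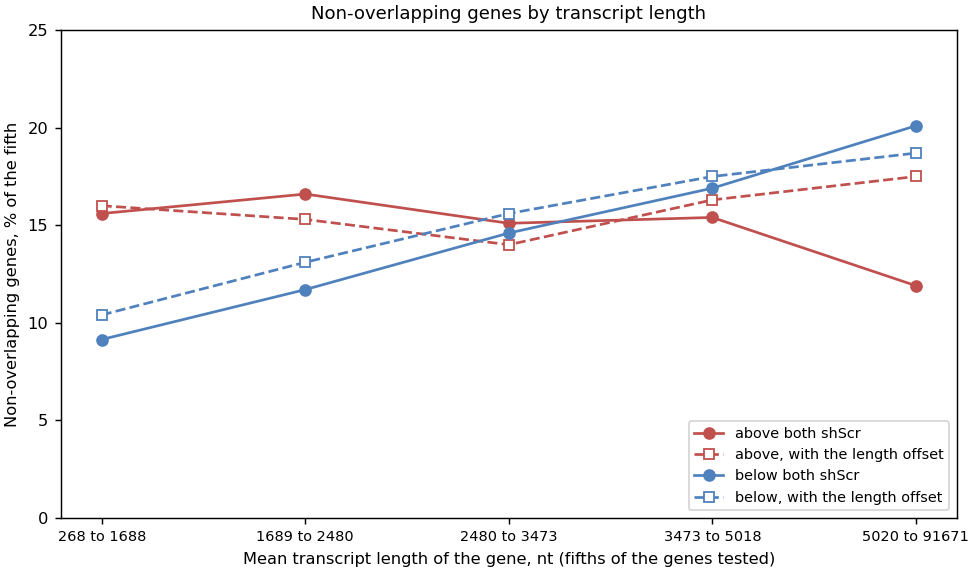
Share of non-overlapping genes (y axis, % of the genes in each quintile) by mean transcript length (x axis, nt, quintiles of the 14217 genes tested), for KD libraries above (red) and below (blue) both shScr libraries. Filled circles are scaled counts and open squares are counts with the length correction; below-control genes go from 9.14% to 20.1% and, with the correction, from 10.4% to 18.7%.

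The widest gaps were taken as the leading genes, 15 in each direction among genes with a mean of at least 10 CPM. Each of these 30 genes rose or fell in the test of the mean of the hairpins. They were picked for their gaps in the same libraries, so these calls are no independent support. With the KD libraries as one group, SUSD2 (FDR 0.104) and MUC5B (FDR 0.0799) were not called and the other 28 were. Where a gene is given as going from one level to others, the shScr libraries come first, then those of shRBM10#1 and then those of shRBM10#2, each as replicate 1 and replicate 2.

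**Figure D2:**
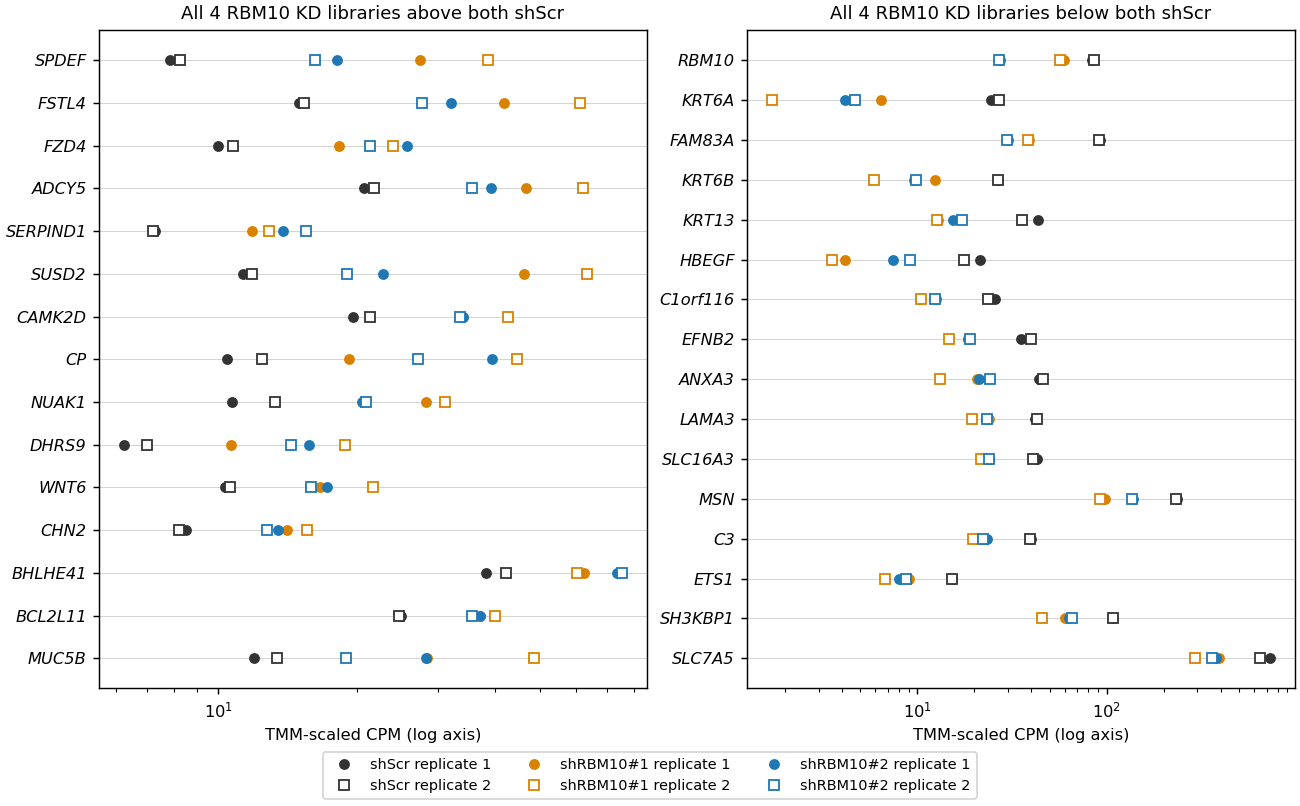
TMM-scaled CPM (x axis, log scale) of the 15 genes with the widest gap in each direction (y axis), and of RBM10, in each of the 6 libraries: shScr black, shRBM10#1 orange, shRBM10#2 blue, replicate 1 filled circles and replicate 2 open squares. No KD point falls within the span of the controls; the orange points are farthest out for SPDEF, SUSD2 and HBEGF, and blue is lowest for RBM10 and FAM83A.

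Keratins of stratified epithelium held the largest fall among the leading genes. These are bulk libraries, in which fewer cells of a kind and less RNA per cell cannot be told apart. KRT6A, a keratin of activated and hyperproliferative epithelium, was at 24.4 and 26.8 CPM in shScr, 6.39 and 1.71 CPM under shRBM10#1 and 4.15 and 4.67 CPM under shRBM10#2. It fell by 2.62 ± 0.25 on the log2 scale (edgeR FDR 5.26e-05), with all 4 KD libraries at most 6.39 CPM. Its near-identical neighbour KRT6B fell as well, from 26.7 and 26.6 CPM to 12.4 and 5.86 CPM and 9.53 and 9.84 CPM (log2 FC -1.51 ± 0.18, edgeR FDR 0.000195), and reads shared by the 2 genes may have been divided between them. KRT13, a keratin of the upper layers of stratified epithelia, went from 43.4 and 35.9 CPM to 12.8 and 12.7 CPM and 15.4 and 17.3 CPM (log2 FC -1.46 ± 0.08, edgeR FDR 9.43e-07).

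Not every keratin moved that way. KRT15, found in basal cells, rose from 76.3 and 65.6 CPM to 119 and 153 CPM under shRBM10#1 and 90.7 and 93.9 CPM under shRBM10#2 (log2 FC 0.66 ± 0.09, edgeR FDR 0.000661). KRT23 rose from 3.94 and 5.13 CPM to 12.6 and 18.2 CPM and 7.14 and 6.55 CPM (log2 FC 1.18 ± 0.16, edgeR FDR 0.000594), and for both keratins the shRBM10#1 libraries were the higher pair. Of 47 keratins, claudins and junction genes tested, 6 lay above and 13 below, 4 rose and 16 fell in the test, and the median log2 FC was -0.07. When shScr replicate 2 was left out, 2 rose and 9 fell. KRT8 and KRT18, the keratins of simple epithelium that PC-9 cells hold in bulk, overlapped between the groups. Among junction genes, CLDN3, a tight junction claudin, rose (log2 FC 0.41 ± 0.09, edgeR FDR 0.00625), and that call was lost without shScr replicate 2 (FDR 0.0967).

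Matrix and adhesion genes were mostly lower where they separated. Laminins and collagens build the basement membrane, and integrins bind cells to it. Of 58 tested, 4 lay above and 24 below (41.4%), 6 rose and 25 fell, and the median log2 FC was -0.23. As one group, the KD libraries gave 1 call higher and 8 lower. Without shScr replicate 2 the median was -0.15, and 10 lay above and 26 below the remaining control. With the length correction 7 lay above and 23 below. The list is long in transcripts (median 5461 nt).

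LAMA3, a chain of the laminin under epithelial cells, stood at 42.0 and 42.8 CPM in shScr, 24.0 and 19.4 CPM under shRBM10#1 and 23.0 and 23.3 CPM under shRBM10#2 (log2 FC -0.92 ± 0.08, edgeR FDR 1.89e-05). COL17A1, a collagen of hemidesmosomes, fell from 3.17 and 2.73 CPM to 1.05 and 0.489 CPM and 0.350 and 0.731 CPM (log2 FC -2.20 ± 0.30, edgeR FDR 0.000545). The fibrillar collagen gene COL5A1 fell from 21.7 and 22.2 CPM to 15.02 and 10.8 CPM and 12.3 and 13.5 CPM (log2 FC -0.77 ± 0.11, edgeR FDR 0.000642). In none of these 3 genes was a difference between hairpins called (edgeR FDR between 0.453 and 0.986). Against that direction TIMP3, an inhibitor of matrix proteases, rose from 265 and 278 CPM to 372 and 415 CPM and 376 and 357 CPM (log2 FC 0.48 ± 0.06, edgeR FDR 0.000375). ITGB6, an integrin chain of epithelia that helps activate TGF-beta, rose too (log2 FC 0.39 ± 0.08, edgeR FDR 0.0041), with an FDR of 0.0529 without shScr replicate 2.

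Genes of the actin cytoskeleton were lower in 28 of 53 tested (52.8%), and 2 lay above. In the test 23 fell and 2 rose, and the median log2 FC was -0.16 (-0.12 with shRBM10#1 and -0.23 with shRBM10#2). As one group, the KD libraries gave 8 calls lower and 0 higher. In the edgeR test without shScr replicate 2, 16 fell and none rose, and with TPM 29 lay below. The list covers actins, filamins that crosslink actin, the ezrin, radixin and moesin proteins that tie it to the membrane, and myosin chains.

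Moesin (MSN) had 236 and 232 CPM in shScr, 98.3 and 92.6 CPM under shRBM10#1 and 138 and 137 CPM under shRBM10#2. Replicates nearly coincided and the 3 conditions did not overlap, with the lowest level under shRBM10#1, the hairpin that left more RBM10. The log2 FC of the mean of the hairpins was -1.03 ± 0.05 (edgeR FDR 2.84e-07). FLNC, a filamin, fell from 5.27 and 5.89 CPM to 2.37 and 2.01 CPM and 2.88 and 2.87 CPM (log2 FC -1.16 ± 0.14, edgeR FDR 0.000306). SH3KBP1, an adaptor that links receptor endocytosis to actin, fell from 108 and 108 CPM to 60.5 and 45.4 CPM and 63.1 and 65.4 CPM (log2 FC -0.89 ± 0.09, edgeR FDR 5.26e-05). PLS1, an actin bundler, went the other way (log2 FC 0.23 ± 0.06, edgeR FDR 0.0128), and this call was lost without either shScr library or either shRBM10#2 library. It was called with shRBM10#2 (log2 FC 0.37, edgeR FDR 0.00169) and not with shRBM10#1 (0.09, edgeR FDR 0.377).

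Promoters of this list were searched for the CArG box, the site of serum response factor, which drives many actin genes. Sequences came from RefSeq (GRCh38.p14), 250 bases before the start site, and 46 of the 53 genes had one. A CArG box was present in 5 of the 46 (10.9%), against 0.993% of the tested genes with a promoter and 1.14% of all 27305 promoters in the table. All 5 genes lay below both controls, but so did 25 of the 46 in all. Over all genes tested, a box was present in 0.874% of higher and 1.75% of lower genes with a promoter. The 5 genes are ACTG1, TPM4, CNN2, FLNA and RND3, named for their promoters and not by the rule for leading genes. Of these, FLNA (log2 FC -0.66 ± 0.09, edgeR FDR 0.000692), ACTG1 (-0.32 ± 0.06, edgeR FDR 0.00358) and CNN2 (-0.23 ± 0.05, edgeR FDR 0.0097) fell. TPM4 (log2 FC -0.11 ± 0.05) and RND3 (-0.11 ± 0.06) did not pass. A match of letters is no evidence of binding. The windows of 80 bases around the box are shown for the 3 genes that fell, on the strand of the gene, with the box in capitals. They span chrX:154374684-154374763 (minus strand), chr17:81512849-81512928 (minus strand) and chr19:1026484-1026563 (plus strand) of GRCh38.p14, in that order.
FLNA: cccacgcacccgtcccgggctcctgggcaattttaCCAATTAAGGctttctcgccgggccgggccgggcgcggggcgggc
ACTG1: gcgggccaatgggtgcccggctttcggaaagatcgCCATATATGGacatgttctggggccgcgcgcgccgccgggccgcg
CNN2: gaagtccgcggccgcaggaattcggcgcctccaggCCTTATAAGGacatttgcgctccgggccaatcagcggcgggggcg

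The programme driven by ATF4, a transcription factor made when amino acids run short or the ER is stressed, held the largest share of lower genes among the 28 function lists. It covers enzymes that make asparagine and serine, amino acid carriers and stress regulators. Of 34 tested, 23 lay below (67.6%) and 3 above. In the test 21 fell and none of the 3 higher genes passed. The median log2 FC was -0.41 (-0.51 with shRBM10#1 and -0.29 with shRBM10#2). As one group, the KD libraries gave 5 calls lower and 0 higher. Without shScr replicate 2 the median was -0.473, and with TPM 24 lay below. However, shScr replicate 2 was the control nearer to KD in SLC7A5, CHAC1 and DDIT4. Leaving it out therefore cannot show whether the size of the fall rests on shScr replicate 1. No value for the list without shScr replicate 1 is given here. For the 3 genes named, the fits included leaving out shScr replicate 1, among 14 alternatives. Over these, the log2 FC ran from -1.05 to -0.84 for SLC7A5, from -2.48 to -1.66 for CHAC1 and from -0.97 to -0.73 for DDIT4. By the rule for non-overlap, the 23 lower genes lay below each control.

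SLC7A5, the carrier for leucine and other large amino acids, had 728 and 643 CPM in shScr, 392 and 294 CPM under shRBM10#1 and 381 and 362 CPM under shRBM10#2 (log2 FC -0.94 ± 0.09, edgeR FDR 5.26e-05). CHAC1, which degrades glutathione, fell from 17.9 and 10.1 CPM to 2.30 and 1.33 CPM and 6.33 and 5.06 CPM (log2 FC -2.13 ± 0.21, edgeR FDR 6.64e-05). DDIT4, an inhibitor of mTORC1 signaling, fell from 467 and 396 CPM to 229 and 218 CPM and 251 and 258 CPM (log2 FC -0.86 ± 0.07, edgeR FDR 9.14e-06). In each of these 3 genes shScr replicate 1 was the highest library, and an shRBM10#1 library the lowest. CHAC1 was lower with shRBM10#1 (log2 FC -2.96) than with shRBM10#2 (-1.29), and the difference between hairpins had an FDR of 0.0022.

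The 3 members above both controls were PYCR1 (log2 FC 0.14 ± 0.06, edgeR FDR 0.116), CEBPB (0.21 ± 0.07, edgeR FDR 0.0505) and ALDH1L2 (1.37 ± 0.66, edgeR FDR 0.167). CEBPB passed in 7 of 14 alternatives (edgeR or DESeq2 FDR between 0.00771 and 0.422 over all 14). ALDH1L2 was near the limit of detection, with no library above 0.313 CPM. PYCR1 makes proline and CEBPB is a transcription factor that partners with ATF4. ATF4 mRNA, outside the rule for named genes, was also lower, 550.5 and 473 CPM in shScr against 398 and 371 CPM and 453 and 455 CPM (log2 FC -0.29 ± 0.07, edgeR FDR 0.00919). ATF4 is controlled largely at translation, which these libraries do not measure.

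**Figure D3:**
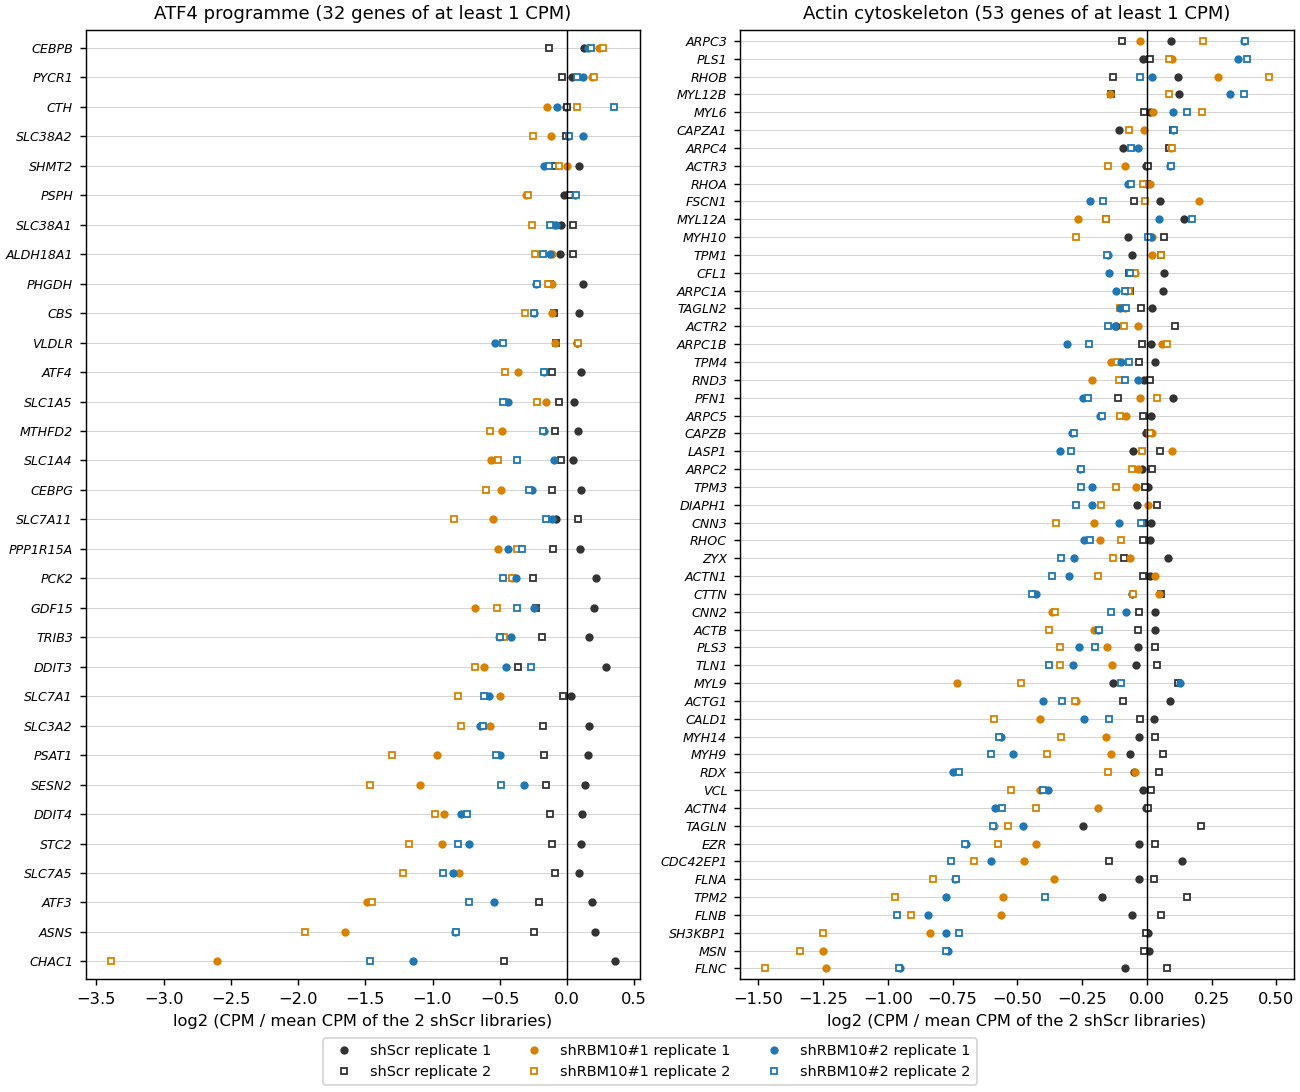
Each library's log2 CPM relative to the mean of the 2 shScr libraries (x axis) for the 32 genes of the ATF4 programme and the 53 actin cytoskeleton genes with a mean of at least 1 CPM (y axis, ordered by log2 FC); colors and symbols as for the leading genes. CHAC1, ASNS and ATF3 reach farthest below the controls on the left, with shRBM10#1 (orange) the lower hairpin, and FLNC, MSN and SH3KBP1 on the right.

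ATF4 binds the C/EBP-ATF response element (CARE), searched here as TGATGNAA on both strands of the 250 bases before the start site. Of the 34 genes 28 had a promoter in the table, and 3 (10.7%) held a match, ASNS, CHAC1 and ATF3. The share was 1.37% in the tested genes with a promoter and 3.19% in all promoters. All 3 lay below both controls, but so did 22 of the 28 in all. Over all genes tested, a match was held by 1.57% of higher and 1.93% of lower genes with a promoter. ASNS, which makes asparagine, went from 56.5 and 41.2 CPM to 15.6 and 12.6 CPM and 27.5 and 27.5 CPM (log2 FC -1.31 ± 0.11, edgeR FDR 1.65e-05). ATF3, a stress-induced transcription factor, went from 11.3 and 8.60 CPM to 3.55 and 3.64 CPM and 6.84 and 6.004 CPM (log2 FC -1.05 ± 0.13, edgeR FDR 0.000284). ASNS and ATF3 are named for their promoters, after their values were seen. The windows of 80 bases show the element in capitals on the strand of the gene, where CHAC1 carries it in reverse. They span chr7:97872433-97872512 (minus strand), chr1:212565180-212565259 (plus strand) and chr15:40953226-40953305 (plus strand) of GRCh38.p14.
ASNS: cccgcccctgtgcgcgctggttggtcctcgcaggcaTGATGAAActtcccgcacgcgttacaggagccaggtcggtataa
ATF3: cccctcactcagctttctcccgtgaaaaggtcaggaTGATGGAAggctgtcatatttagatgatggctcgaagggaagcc
CHAC1: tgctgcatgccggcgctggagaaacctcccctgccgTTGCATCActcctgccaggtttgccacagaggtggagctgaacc

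Cytosolic tRNA synthetases, which load tRNAs with amino acids, were lower in 11 of 23 genes (47.8%) and higher in 3, and 10 fell while 1 rose. As one group, the KD libraries gave 4 calls lower and 0 higher. The median log2 FC was -0.18, and without shScr replicate 2, 7 fell and 1 rose. CARS (cysteine) fell from 58.4 and 53.5 CPM to 34.4 and 31.3 CPM and 38.4 and 38.6 CPM (log2 FC -0.65 ± 0.06, edgeR FDR 5.95e-05). GARS (glycine) fell by 0.80 ± 0.09 on the log2 scale (edgeR FDR 0.000113) and AARS (alanine) fell by 0.74 ± 0.08 (edgeR FDR 0.00013). The gene that rose, EEF1E1, encodes an accessory protein of the synthetase complex (log2 FC 0.31 ± 0.07, edgeR FDR 0.00853). It stood at 21.4 and 21.9 CPM in shScr, 23.4 and 22.9 CPM under shRBM10#1 and 31.99 and 30.2 CPM under shRBM10#2, so most of its rise came from shRBM10#2. It was not called without shScr replicate 1 or shRBM10#2 replicate 1 (FDR 0.0582 and 0.0523). Of 46 translation factors, 5 lay above and 6 below, and 4 rose and 4 fell (none and 2 without shScr replicate 2). Of 30 ER folding genes, 5 lay above and 4 below, and 1 rose and 1 fell (1 and none without shScr replicate 2).

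Glycolysis and hypoxia genes were lower in 12 of 36 (33.3%) and higher in 4, and 12 fell and 2 rose (median log2 FC -0.11). As one group, the KD libraries gave 2 calls lower and 0 higher. Without shScr replicate 2 the median was -0.09. SLC16A3, which exports lactate, had 42.8 and 40.6 CPM in shScr and 23.6 and 21.7 CPM and 23.9 and 23.9 CPM with the hairpins (log2 FC -0.84 ± 0.06, edgeR FDR 9.14e-06). All 4 KD libraries sat within 21.7 to 23.9 CPM. HK2, the first enzyme of glycolysis, fell from 71.1 and 83.1 CPM to 57.6 and 58.7 CPM and 56.2 and 54.4 CPM (log2 FC -0.44 ± 0.07, edgeR FDR 0.000941), and the glucose carrier SLC2A1 fell too (log2 FC -0.35 ± 0.05, edgeR FDR 0.000748). ANGPTL4, an inhibitor of lipoprotein lipase with at most 1.66 CPM in any library, rose (log2 FC 1.22 ± 0.30, edgeR FDR 0.0134) and was not called without shScr replicate 2. It was called with shRBM10#1 (log2 FC 1.61, edgeR FDR 0.00518) and not with shRBM10#2 (0.83, edgeR FDR 0.0906). In cholesterol and fatty acid synthesis, 8 of 35 lay below and 1 above, and 9 fell and 1 rose. As one group, the KD libraries gave 0 calls in either direction. Against shScr replicate 1 alone, 14 lay below and 6 above, and the median log2 FC was -0.07 (-0.08 with both controls).

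PC-9 cells depend on EGFR, whose ligands and feedback genes were listed together with the other ERBB receptors. Of 34 tested, 11 lay below (32.4%) and 5 above, and 9 fell and 4 rose (5 fell and none rose without shScr replicate 2). The EGFR ligand HBEGF had 21.5 and 17.7 CPM in shScr, 4.16 and 3.56 CPM under shRBM10#1 and 7.46 and 9.16 CPM under shRBM10#2 (log2 FC -1.79 ± 0.11, edgeR FDR 2.73e-06). Its lowest libraries were those of shRBM10#1. FOSL1, an AP-1 subunit induced by ERK, fell from 51.1 and 44.0 CPM to 30.9 and 27.1 CPM and 33.0 and 33.6 CPM (log2 FC -0.61 ± 0.08, edgeR FDR 0.000306).

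Feedback inhibitors of this pathway went in both directions. DUSP6, an ERK phosphatase, rose from 107 and 98.6 CPM to 128 and 160.2 CPM and 125 and 124 CPM (log2 FC 0.38 ± 0.08, edgeR FDR 0.00594), and SPRY1 and SPRY2 rose by 0.46 ± 0.11 and 0.47 ± 0.12 (edgeR FDR 0.0114 and 0.0164). None of the 3 was called without shScr replicate 2 (FDR between 0.0506 and 0.0994), SPRY1 and SPRY2 were not called without shScr replicate 1 (FDR 0.113 and 0.112), and SPRY2 was not called without shRBM10#2 replicate 1 (FDR 0.053). With shRBM10#1 SPRY2 was called (log2 FC 0.66, edgeR FDR 0.00593), and with shRBM10#2 it was not (0.28, edgeR FDR 0.151). SPRY4, chosen here after its value was seen, fell (log2 FC -0.22 ± 0.07, edgeR FDR 0.0348).

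Other leading genes that fell act in signaling at the cell surface or in the nucleus. FAM83A, a scaffold protein reported to bind RAF kinase, had 91.8 and 91.5 CPM in shScr, 38.7 and 38.4 CPM under shRBM10#1 and 30.3 and 29.7 CPM under shRBM10#2 (log2 FC -1.43 ± 0.05, edgeR FDR 2.65e-08). EFNB2, the ligand of EPHB receptors, fell from 35.2 and 39.8 CPM to 18.4 and 14.7 CPM and 18.6 and 18.9 CPM (log2 FC -1.09 ± 0.09, edgeR FDR 1.19e-05). The transcription factor ETS1 fell from 15.2 and 15.2 CPM to 9.08 and 6.70 CPM and 7.94 and 8.72 CPM (log2 FC -0.91 ± 0.11, edgeR FDR 0.000306). ANXA3, an annexin that binds membranes in the presence of calcium, fell from 43.8 and 45.8 CPM to 20.6 and 13.2 CPM and 21.2 and 24.2 CPM (edgeR FDR 6.64e-05). C1orf116, first described as an androgen-regulated gene, fell by 1.12 ± 0.08 on the log2 scale (edgeR FDR 4.24e-06). Among S100 proteins and annexins as a whole, 4 of 25 lay above and 4 below, and 4 rose and 5 fell (1 and 3 without shScr replicate 2).

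Of 14 genes listed for MHC class I presentation, 7 lay below (50%), all 7 fell and none lay above, with a median log2 FC of -0.24. Of the 14, 2 were called lower and 0 higher with the KD libraries as one group. CD274, which is not itself a presentation gene, is counted among the 14 and the 7. TAP1, which pumps peptides into the ER, had 44.4 and 44.3 CPM in shScr and 34.4 and 33.3 CPM and 34.0 and 33.5 CPM with the hairpins (log2 FC -0.39 ± 0.06, edgeR FDR 0.00088). ERAP2, which trims those peptides, fell from 34.0 and 38.9 CPM to 24.1 and 26.5 CPM and 24.2 and 25.2 CPM (log2 FC -0.54 ± 0.07, edgeR FDR 0.000542). HLA-B and HLA-C, which encode class I heavy chains, and their partner B2M overlapped between the groups. Leaving out shScr replicate 2, 3 of the 14 fell. CD274, the PD-L1 gene, was near the floor at 1.36 and 1.06 CPM in shScr and 0.448 and 0.353 CPM and 0.727 and 0.548 CPM in KD (log2 FC -1.26 ± 0.30, edgeR FDR 0.0123). It was not called without either shScr library or without shRBM10#2 replicate 2. CD274 was called with shRBM10#1 (log2 FC -1.60, edgeR FDR 0.0131) and not with shRBM10#2 (-0.92, edgeR FDR 0.0641).

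In the NF-kB feedback and cytokine list, 10 of 29 lay below (34.5%) and 3 above, and 9 fell and 2 rose (7 fell and none rose without shScr replicate 2). Its median log2 FC was -0.22 with shRBM10#1 and 0.05 with shRBM10#2. C3, the central complement component, fell from 39.8 and 39.3 CPM to 21.9 and 19.7 CPM and 23.3 and 22.2 CPM (log2 FC -0.86 ± 0.07, edgeR FDR 1.02e-05). LIF, a cytokine of the IL-6 family, fell from 33.6 and 33.7 CPM to 23.1 and 20.4 CPM and 23.3 and 22.2 CPM (log2 FC -0.60 ± 0.07, edgeR FDR 0.000206). TNFAIP3, a brake on NF-kB, fell by 0.99 ± 0.17 on the log2 scale (edgeR FDR 0.0021). Interferon-stimulated genes had 5 above and 4 below of 34, with 2 that rose and 4 that fell (1 and 3 without shScr replicate 2). Among them OAS2, a sensor of double-stranded RNA, went from 0.0308 and 0.0608 CPM to 0.671 and 1.06 CPM under shRBM10#1 and 0.269 and 0.313 CPM under shRBM10#2. Its counts in shScr are too few for the fold to be read as a size. The edgeR FDR of OAS2 was 0.00389, and 0.0537 without shScr replicate 1.

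Of the leading genes that rose, SPDEF and MUC5B are known from secretory epithelium. SPDEF, a transcription factor of mucus-producing cells, had 7.85 and 8.26 CPM in shScr, 27.5 and 38.7 CPM under shRBM10#1 and 18.1 and 16.2 CPM under shRBM10#2. All 4 KD libraries lay well above the higher control, and the log2 FC was 1.56 ± 0.13 (edgeR FDR 1.93e-05). MUC5B, a gel-forming airway mucin, rose from 12.0 and 13.4 CPM to 28.5 and 48.6 CPM and 28.4 and 19.0 CPM (log2 FC 1.25 ± 0.20, edgeR FDR 0.0013), and its KD replicates varied more than its controls. CEBPA, a transcription factor of airway and alveolar epithelium, rose from 48.9 and 47.9 CPM to 70.9 and 77.6 CPM and 56.9 and 60.1 CPM (log2 FC 0.45 ± 0.06, edgeR FDR 0.000665).

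The lung lineage and secretory list as a whole was not one-sided, with 5 of 30 above and 8 below, and 6 that rose and 6 that fell (4 and 3 without shScr replicate 2). KLF4, a transcription factor of epithelial differentiation, fell from 63.3 and 56.2 CPM to 30.4 and 32.9 CPM and 35.1 and 32.3 CPM (log2 FC -0.87 ± 0.07, edgeR FDR 1.19e-05). ALPP, placental alkaline phosphatase, fell from 216 and 204 CPM to 141 and 117 CPM and 126 and 121 CPM (log2 FC -0.73 ± 0.07, edgeR FDR 4.98e-05).

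Receptors, ligands and signaling enzymes made up much of the rest of the leading higher genes. FZD4, a Wnt receptor, had 10.0 and 10.8 CPM in shScr, 18.3 and 24.0 CPM under shRBM10#1 and 25.7 and 21.4 CPM under shRBM10#2 (log2 FC 1.11 ± 0.12, edgeR FDR 0.000116). The ligand WNT6 rose from 10.3 and 10.6 CPM to 16.7 and 21.7 CPM and 17.3 and 15.9 CPM (log2 FC 0.77 ± 0.11, edgeR FDR 0.000665). ADCY5, which makes cyclic AMP, rose from 20.7 and 21.8 CPM to 46.6 and 62.2 CPM and 39.2 and 35.6 CPM (log2 FC 1.09 ± 0.11, edgeR FDR 5.26e-05). Of FZD4's exonic bases, 18.9% are shared with PRSS23 on the opposite strand.

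Kinases and a GTPase regulator rose beside them. CAMK2D, a calcium- and calmodulin-dependent kinase, rose by 0.81 ± 0.09 on the log2 scale (edgeR FDR 0.000137). NUAK1, a kinase related to AMPK, rose by 1.05 ± 0.09 (edgeR FDR 3.44e-05), and CHN2, which turns off the GTPase RAC, by 0.74 ± 0.09 (edgeR FDR 0.000339). CAMK2D and CHN2 had a hairpin difference with an FDR of 0.182 and 0.202, while NUAK1 was higher with shRBM10#1 than with shRBM10#2 (FDR 0.00291).

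Further leading genes encode secreted or surface proteins. SUSD2, a sushi domain protein of the cell surface, had 11.3 and 11.8 CPM in shScr, 46.1 and 63.2 CPM under shRBM10#1 and 22.8 and 19.1 CPM under shRBM10#2 (log2 FC 1.55 ± 0.13, edgeR FDR 1.55e-05). FSTL4, a secreted follistatin-like protein, rose from 14.999 and 15.4 CPM to 41.7 and 61.0 CPM and 31.99 and 27.7 CPM (log2 FC 1.37 ± 0.13, edgeR FDR 5.26e-05). SERPIND1, heparin cofactor II, rose from 7.30 and 7.20 CPM to 11.9 and 12.9 CPM and 13.8 and 15.6 CPM (log2 FC 0.90 ± 0.10, edgeR FDR 0.000132).

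Ceruloplasmin (CP), the copper carrier that oxidizes iron, varied widely between replicates. It ran from 10.5 and 12.5 CPM in shScr to 19.2 and 44.7 CPM and 39.3 and 27.1 CPM (log2 FC 1.51 ± 0.27, edgeR FDR 0.0025, and 0.0532 without shScr replicate 1). Of CP's exonic bases, 19.4% are shared with HPS3 on the opposite strand. DHRS9, a retinol dehydrogenase, rose by 1.17 ± 0.18 on the log2 scale (edgeR FDR 0.00119). BHLHE41, a repressor of the circadian clock, had 38.2 and 42.3 CPM in shScr, 62.3 and 60.3 CPM under shRBM10#1 and 73.5 and 75.3 CPM under shRBM10#2 (log2 FC 0.75 ± 0.06, edgeR FDR 2.13e-05). It was one of the leading genes in which the hairpin that left less RBM10 also lay farther from the controls.

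**Figure D4:**
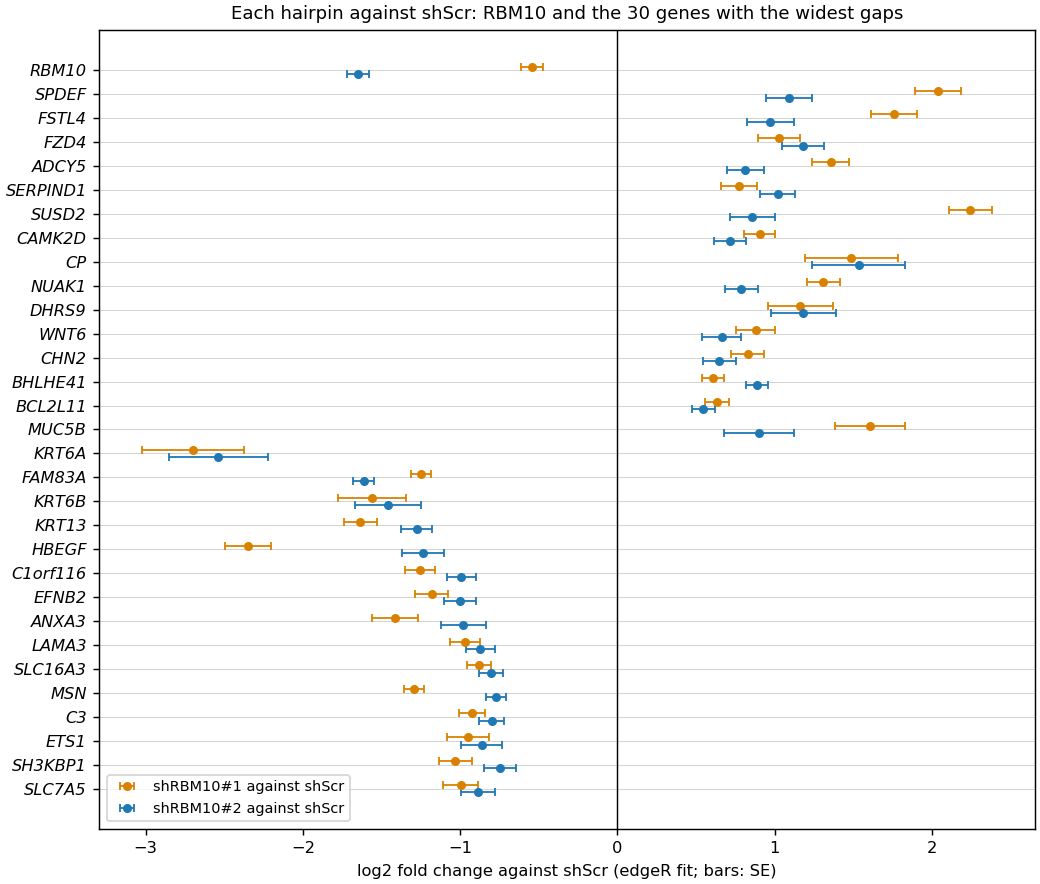
log2 FC against shScr (x axis) with shRBM10#1 (orange) and shRBM10#2 (blue) for RBM10 and the 30 genes with the widest gaps (y axis); points are edgeR estimates and bars are SE. Both comparisons use the same 2 shScr libraries. RBM10 lies at -0.54 and -1.65, while SPDEF, SUSD2, HBEGF and MSN lie farther from 0 with shRBM10#1.

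Across all non-overlapping genes the hairpin that left less RBM10 was not generally farther from the controls. shRBM10#2 had the larger fold in 1132 of the 2123 higher genes (53.3%) and 1059 of the 2061 lower genes (51.4%), against 55.5% of all genes tested. A difference between hairpins was called (edgeR FDR below 0.05) in 17.1% of the higher and 16.8% of the lower genes, against 25.5% of all genes tested. Non-overlap asks both hairpins to lie on one side, so the lower shares follow in part from the rule.

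In the Bcl-2 family and caspases, which set the threshold for apoptosis, 8 of 31 genes lay above (25.8%) and 5 below, and 3 rose and 4 fell (1 and 2 without shScr replicate 2). With TPM the balance turned, with 2 above and 7 below, as it did over all genes tested (968 above and 2362 below). BCL2L11, which encodes the pro-apoptotic protein BIM, had 25.01 and 24.8 CPM in shScr, 37.1 and 40.0 CPM under shRBM10#1 and 37.0 and 35.6 CPM under shRBM10#2 (log2 FC 0.59 ± 0.07, edgeR FDR 0.000151). Of BCL2L11's exonic bases, 10.9% are shared with MIR4435-2HG on the opposite strand. BCL2L1, the Bcl-x gene, fell from 235 and 229 CPM to 173 and 175 CPM and 168 and 168 CPM (log2 FC -0.44 ± 0.05, edgeR FDR 0.000195). These are sums over the Bcl-x isoforms, which oppose each other in apoptosis, and 43% of the exonic bases of BCL2L1 are shared with ABALON on the opposite strand. MCL1, another survival gene, fell by 0.21 ± 0.05 on the log2 scale (edgeR FDR 0.0153), and was not called without any one of the shScr and shRBM10#2 libraries (FDR between 0.0527 and 0.106). The BH3-only gene BMF (log2 FC 0.36 ± 0.11, edgeR FDR 0.0438) and CASP8 (0.26 ± 0.07, edgeR FDR 0.0197) rose. MCL1, BMF and CASP8 were each called with only 1 of the hairpins. With shRBM10#1 and shRBM10#2, the log2 FC of BMF was 0.54 and 0.17 (edgeR FDR 0.0127 and 0.376). That of CASP8 was 0.15 and 0.37 (edgeR FDR 0.234 and 0.00499), and that of MCL1 -0.14 and -0.28 (edgeR FDR 0.147 and 0.0061). BMF lost its call when any 1 library but shRBM10#1 replicate 1 was left out (FDR between 0.0675 and 0.198), and CASP8 was not called without shScr replicate 2 (FDR 0.175) or shRBM10#2 replicate 2 (FDR 0.104).

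NRF2 targets, which detoxify electrophiles and oxidants, lay above in 13 of 46 (28.3%) and below in 5, and 11 rose and 5 fell (median log2 FC 0.08). As one group, the KD libraries gave 1 call higher and 0 lower. NQO1, a quinone reductase, had 1695 and 1578 CPM in shScr, 2464 and 2794 CPM under shRBM10#1 and 2313 and 2371 CPM under shRBM10#2 (log2 FC 0.60 ± 0.06, edgeR FDR 0.000116). AKR1C1, an aldo-keto reductase with near-identical paralogs, rose from 1230.0 and 1137 CPM to 1398 and 1373 CPM and 1552 and 1605 CPM (log2 FC 0.32 ± 0.06, edgeR FDR 0.00245). The list did not move as one, since ABCC1, a drug exporter, fell (log2 FC -0.27 ± 0.06, edgeR FDR 0.00708). ABCC1 was called with shRBM10#1 (edgeR FDR 0.00421) and not with shRBM10#2 (edgeR FDR 0.058), and its call was lost without shScr replicate 2. When shScr replicate 2 was left out, 6 rose and 1 fell.

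Ribosomal proteins and subunits of oxidative phosphorylation shifted upward by small amounts. Of 79 cytosolic ribosomal protein genes, 20 lay above (25.3%) and 1 below, 22 rose and 1 fell, and the median log2 FC was 0.16. Of 76 nuclear oxidative phosphorylation genes, 23 lay above (30.3%) and 2 below, 25 rose and 2 fell, and the median was 0.14. As one group, the KD libraries gave 0 calls higher and 0 lower in both lists. These are the lists of shortest transcripts, with median lengths of 713 and 844 nt. Without shScr replicate 2, no ribosomal protein gene rose in the edgeR test and 1 fell, 3 oxidative phosphorylation genes rose and 1 fell, and the medians were 0.08 and 0.07. Against shScr replicate 1 alone, 24 ribosomal protein genes lay above and 10 below, and 23 oxidative phosphorylation genes lay above and 10 below. With the length correction 36 and 27 rose and 4 and 3 fell, and the medians were 0.138 and 0.115. Calls over all genes tested also grew with it, from 1210 to 1623 higher and from 1400 to 1696 lower. With DESeq2 30 and 24 rose and 1 and 2 fell, against 1003 higher and 1259 lower over all genes tested.

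NDUFB5, a complex I subunit, had 74.4 and 70.4 CPM in shScr and 89.1 and 99.0 CPM and 89.5 and 98.7 CPM with the hairpins (log2 FC 0.38 ± 0.07, edgeR FDR 0.00243). RPL13, of the large ribosomal subunit, had 1075 and 986 CPM, 1227 and 1386 CPM and 1172 and 1203 CPM (log2 FC 0.27 ± 0.06, edgeR FDR 0.0119). It was called with shRBM10#1 (edgeR FDR 0.00846) and not with shRBM10#2 (edgeR FDR 0.0589). The call of RPL13 was lost without shScr replicate 2 and without shRBM10#2 replicate 2. The ribosomal protein gene that fell, RPL21, went from 289.7 and 236 CPM to 189.9 and 233 CPM and 132 and 169 CPM (log2 FC -0.56 ± 0.11, edgeR FDR 0.00332). It was called with shRBM10#2 (log2 FC -0.80, edgeR FDR 0.00093) and not with shRBM10#1 (-0.31, edgeR FDR 0.113). The call of RPL21 was lost without shScr replicate 1. Ribosomal protein genes have many processed pseudogenes, so their counts are uncertain where reads were divided among copies.

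Cell cycle genes were above more often than below with scaled counts, though mitosis was above in 15%, near the 14.9% of all genes tested. With TPM they were below more often than above. So were all genes tested (968 above and 2362 below), and the turn was not particular to cell cycle genes. DNA replication and repair had 12 of 51 above (23.5%) and 2 below, with 10 that rose and 2 that fell (median log2 FC 0.05), and mitosis had 6 of 40 above and 4 below, with 6 that rose and 1 that fell. As one group, the KD libraries gave 0 calls in DNA replication and repair, and 0 higher and 1 lower in mitosis. With TPM, DNA replication and repair had 2 above and 3 below and mitosis 1 above and 3 below, and without shScr replicate 2, 3 and 2 genes rose. CDK1, the kinase that drives entry into mitosis, had 219 and 216 CPM in shScr, 227 and 237 CPM under shRBM10#1 and 332 and 329 CPM under shRBM10#2 (log2 FC 0.35 ± 0.05, edgeR FDR 0.00103). Its separation rested mostly on shRBM10#2, and the difference between hairpins had an FDR of 0.000236. NUSAP1, a spindle protein, rose from 129 and 129.7 CPM to 149.8 and 154 CPM and 174 and 177 CPM (log2 FC 0.34 ± 0.05, edgeR FDR 0.00117), whereas CDC25B, a phosphatase that activates CDK1, fell from 172 and 173 CPM to 139 and 124 CPM and 132 and 125 CPM (log2 FC -0.41 ± 0.06, edgeR FDR 0.000757).

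Of 34 targets of p53 and inhibitors of the cell cycle, 7 lay above and 8 below (3 and 10 with TPM), and 4 rose and 7 fell (1 and 6 without shScr replicate 2). CDKN1A, the p21 inhibitor of cyclin-dependent kinases, fell from 34.6 and 36.4 CPM to 16.3 and 21.2 CPM and 22.2 and 19.3 CPM (log2 FC -0.84 ± 0.09, edgeR FDR 0.000136). GADD45A, a growth arrest gene, fell from 34.2 and 30.5 CPM to 18.6 and 17.5 CPM and 23.8 and 22.3 CPM (log2 FC -0.66 ± 0.07, edgeR FDR 0.00013). BTG2, an antiproliferative gene, rose from 14.6 and 14.3 CPM to 17.5 and 23.6 CPM and 20.5 and 20.6 CPM (log2 FC 0.51 ± 0.11, edgeR FDR 0.00614), and was not called without either shScr library (FDR 0.0531 and 0.0666).

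By non-overlap, the splicing genes themselves stood near the background. In the test, though, 9 of 46 core spliceosome genes fell, against 9.85% of all genes tested, and with the KD libraries as one group 0 were called lower. Of 60 RNA-binding splicing factors, 9 lay above (15%) and 9 below (15%), and 3 rose and 5 fell (1 and 2 without shScr replicate 2). CLK2, a kinase of SR proteins, had 20.9 and 19.1 CPM in shScr, 27.7 and 24.9 CPM under shRBM10#1 and 27.8 and 28.2 CPM under shRBM10#2 (log2 FC 0.44 ± 0.08, edgeR FDR 0.00213). RBM5, the closest paralog of RBM10, rose from 24.2 and 23.6 CPM to 26.9 and 31.8 CPM and 31.0 and 31.4 CPM (log2 FC 0.34 ± 0.08, edgeR FDR 0.00951), and was not called without either shScr library (FDR 0.0526 and 0.0801). Of 46 core spliceosome genes, 6 lay above and 8 below, and 4 rose and 9 fell (none and 2 without shScr replicate 2). U2AF2, which binds the polypyrimidine tract before the 3′ splice site, fell from 779 and 797 CPM to 738 and 664 CPM and 544 and 557 CPM (log2 FC -0.34 ± 0.06, edgeR FDR 0.0019), more with shRBM10#2 than with shRBM10#1 (FDR of the difference 0.00329). U2AF2 was called with shRBM10#2 (log2 FC -0.52, edgeR FDR 0.000426) and not with shRBM10#1 (-0.17, edgeR FDR 0.122). Among genes with exons that respond to RBM10 in HEK293 cells, a human embryonic kidney line, as listed by the study, 333 were tested, of which 48 lay above (14.4%) and 52 below (15.6%).

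The remaining lists were small or mixed. In epithelial-mesenchymal transition 3 of 32 lay above and 8 below, with 3 that rose and 4 that fell (2 and 3 without shScr replicate 2). TGFBR2, the TGF-beta receptor, rose from 45.5 and 51.1 CPM to 58.1 and 63.6 CPM and 81.2 and 77.2 CPM (log2 FC 0.52 ± 0.07, edgeR FDR 0.000448), and ID1, an inhibitor of differentiation factors, fell from 69.6 and 50.3 CPM to 30.05 and 26.1 CPM and 35.2 and 41.1 CPM (log2 FC -0.87 ± 0.11, edgeR FDR 0.000335). Lysosomal genes had 7 of 45 above and 3 below, with 9 that rose and 4 that fell (median log2 FC 0.05). Against shScr replicate 1 alone, 10 lay above and 8 below, and the median was 0.02. With TPM 3 lay above and 6 below, a turn also seen over all genes tested. GLA, a galactosidase, fell (log2 FC -0.53 ± 0.06, edgeR FDR 0.000184).

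Heat shock proteins and their co-chaperones had 1 of 32 above and 5 below, and none rose and 5 fell. With shScr replicate 2 left out, 6 lay above and 6 below, and 2 fell. HSPB8, a small heat shock protein, fell from 12.3 and 9.96 CPM to 5.34 and 5.21 CPM and 7.97 and 7.70 CPM (log2 FC -0.79 ± 0.11, edgeR FDR 0.000556). The proteasome had 3 of 41 above and 6 below, with 1 that rose and 3 that fell (none and 1 without shScr replicate 2). The 28 lists hold 1138 tested genes, among them 173 of the 2123 higher (8.15%) and 238 of the 2061 lower genes (11.5%), against 8% of all genes tested, so most non-overlapping genes belong to none of them.

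**Figure D5:**
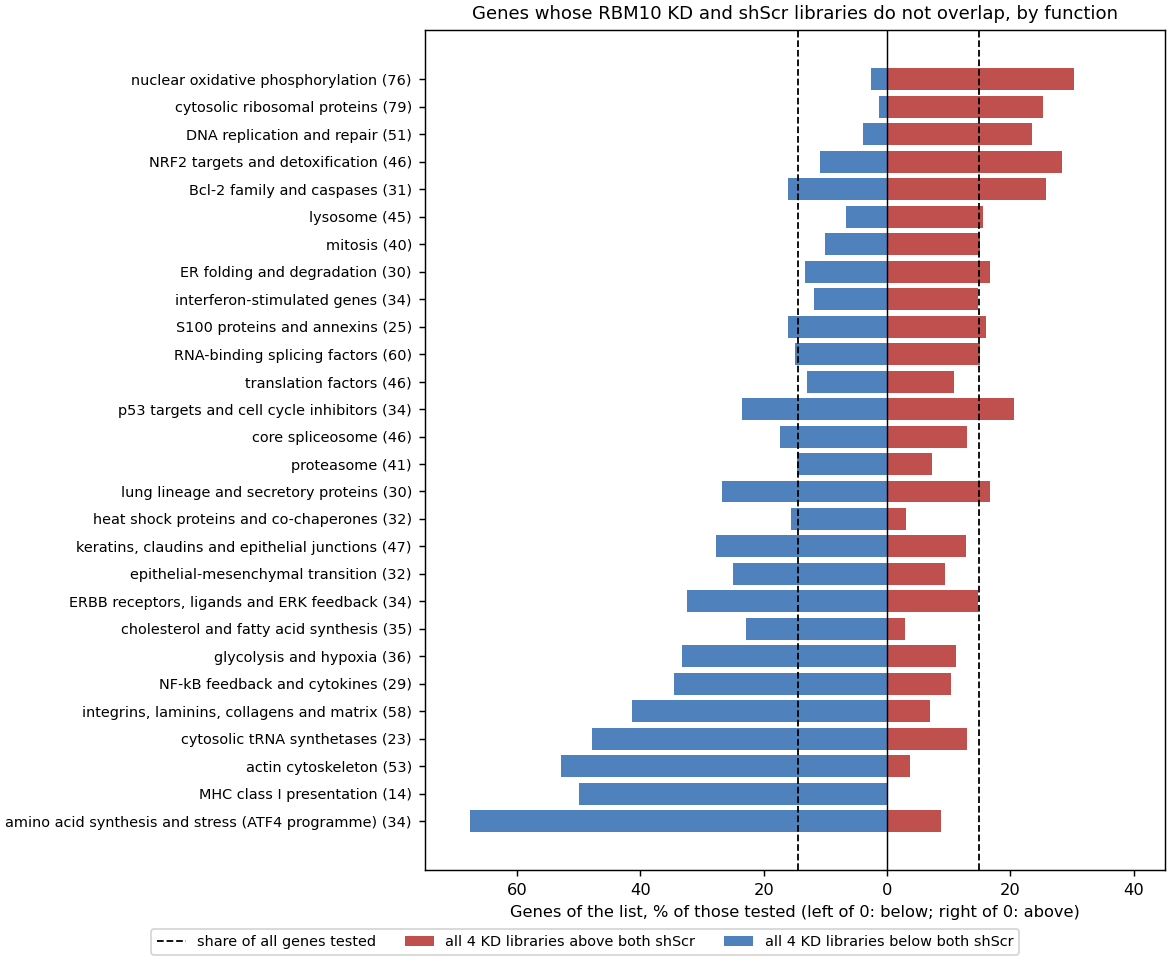
Share of the tested genes of each function list (y axis, number tested in parentheses) whose 4 KD libraries all lay above (red, to the right of 0) or all below (blue, to the left) both shScr libraries (x axis, %). Dashed lines mark the shares of all genes tested, 14.9% and 14.5%; the ATF4 programme reaches 67.6% below, the actin cytoskeleton 52.8% below and oxidative phosphorylation 30.3% above.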

How the data were processed

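Total RNA of PC-9 cells was sequenced in 6 libraries, grouped by the hairpin named in the labels. Per the submitters' processing notes, the authors used STAR 2.4, RSEM 1.2.29, edgeR and hg19. The deposited tables hold expected counts per isoform, together with TPM that the authors' RSEM run scaled within each library. Expected counts were summed per gene symbol over 51398 isoforms and rounded, and the deposited TPM served as an alternative unit. Strandedness was not given in the sources used here. With edgeR 4.0.16 (R 4.3.3), genes were filtered by filterByExpr (14217 kept), scaled by TMM and tested with quasi-likelihood fits and Benjamini-Hochberg adjustment. One fit had a coefficient per condition and set the mean of the hairpins against shScr, the other treated the 4 KD libraries as one group. Both hairpin comparisons share the shScr libraries, so no overlap between them was counted. Non-overlap used TMM-scaled CPM, and gaps log2 CPM with a prior count of 2. Fits were tested on simulated data. Alternatives were DESeq2 1.42.0, other scalings and filters, length and GC offsets (loess, span 0.3), a replicate block and leaving out each library. Library totals bound counting error only.

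Named genes were RBM10, the 15 non-overlapping genes per direction with the widest gap at a mean of at least 10 CPM, and up to 3 per direction in each of 28 function lists; other names are said to be chosen otherwise. Members and lists were chosen with earlier results of these data known. Some genes are not reported here.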

Additional observations from a re-analysis of the deposited data

Results flagged for a closer look

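In 12 of the 31 leading genes, RBM10 included, the hairpins differed from each other by an edgeR quasi-likelihood test (Benjamini-Hochberg FDR below 0.05), against 25.5% of all genes tested. The values are log2 CPM with shRBM10#2 minus shRBM10#1. For RBM10, the target, the difference was -1.105, and for FAM83A it was -0.3622, so both were lower with shRBM10#2. Of the genes that rose, 6 stood higher with shRBM10#1, with differences of -1.388 for SUSD2, -0.9493 for SPDEF, -0.7876 for FSTL4, -0.708 for MUC5B, -0.5431 for ADCY5 and -0.5203 for NUAK1. BHLHE41 stood higher with shRBM10#2 (0.2806). Of the genes that fell, HBEGF (1.113), MSN (0.5224) and KRT13 (0.3585) were lower with shRBM10#1. In 9 of the 12 genes the hairpin that left more RBM10 thus gave the larger departure from shScr. These 12 were picked for their gaps and then for a hairpin difference in the same libraries. For RBM10 the side follows from the naming of the hairpins by the RBM10 they left. Over all genes tested, shRBM10#2 had the larger fold in 55.5%, so the count describes these 12 genes and no trend over genes. Why the hairpins differed was not tested.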

How the results depend on the processing

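Among non-overlapping genes, TPM gave 968 higher and 2362 lower, and a gap of at least 0.2 left 425 and 534. Leaving out 1 library gave 2347 to 3652 higher and 2371 to 3476 lower. The test of the mean of the hairpins called 87 higher and 106 lower with a log2 FC beyond 1, and between 483 and 1787 higher and 617 and 1893 lower with 1 library left out. The lowest counts came without shScr replicate 2 (483 and 617), shRBM10#2 replicate 2 (555 and 718), shRBM10#2 replicate 1 (587 and 782) and shScr replicate 1 (645 and 775). With the KD libraries as one group, DESeq2 called 297 higher and 421 lower, no filter on low counts 117 and 191, a log2 FC beyond 1 23 and 33, and the GC offset, chosen after seeing the data, 174 and 265.

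Leaving out 1 library gave that grouping 0 to 156 higher and 0 to 257 lower. edgeR called 0 without shScr replicate 1 (668 and 715 at an unadjusted p under 0.05, and 40 and 83 by DESeq2) or shScr replicate 2 (569 and 647, and 40 and 89 by DESeq2). It called 156 and 257 without shRBM10#1 replicate 1, 24 and 66 without shRBM10#1 replicate 2, and 48 and 103 without shRBM10#2 replicate 1. Samples of one replicate number did not deviate together (correlations of -0.00384, -0.0193 and -0.0136), so the numbers were not taken as pairs. With the replicate block the mean of the hairpins gave 1032 and 1220 calls and non-overlap 2605 and 2468 genes, and the single KD group 6 and 46, or 0 and 22 with a length offset as well (1010 higher and 1018 lower at an unadjusted p under 0.05). Of the 173 genes that the naming rule gave, none changed direction under these alternatives, which were not run for genes named outside that rule. Of the 173, 43 and 50 lost their call without shScr replicate 1 and 2, 32 and 38 without shRBM10#2 replicate 1 and 2, 9 under the block and 5 with DESeq2. The causes were not tested.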
